A study of Mus musculus with 6 samples.

Results

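Ion channel genes were examined in LSK cells, the lineage-negative bone marrow cells carrying Sca-1 and Kit that include the haematopoietic stem and progenitor cells. The members were chosen by gene name alone: every cytosine of the authors' deposited tables whose nearest gene name begins with Kcn, Cacn, Scn, Clcn, Grin, Gria, Grik, Gabr, Chrn, Hcn, Ryr, Itpr or P2rx, or with Trpc, Trpm or Trpv and a digit. This gave 198 of 6756 listed cytosines and 80 of 3344 nearest genes. Cells came from bone marrow of mice aged 6 months, of a strain labelled CD57BL/6, with 3 wild-type and 3 Tet1 knockout samples. The labels do not say how the Tet1 allele was made, what sex the mice were or whether each sample was a separate mouse. Methylation was read by enhanced reduced representation bisulfite sequencing, which covers mainly CpG-rich fragments. Each cytosine has a single listed value, the difference in percentage points between knockout and wild type, and the lists start at 25 percentage points. Values per sample were not used here, so the spread between replicates and the depth behind a difference are unknown, and the cell identity could not be checked against markers. No test between genotypes was possible, and the counts below are descriptions.

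Ion channels are membrane proteins that let selected ions pass and so set membrane voltage and calcium entry. Voltage-gated potassium, sodium and calcium channels shape electrical signals in neurons, muscle and endocrine cells, and ligand-gated channels carry fast transmission at synapses. In blood cells the best known roles belong to a few members, such as calcium release channels of the endoplasmic reticulum and potassium channels of lymphocytes. Tet1 encodes a dioxygenase that oxidises 5-methylcytosine, a step towards its removal. Bisulfite sequencing reads methylated and hydroxymethylated cytosine as the same state.

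Channel sites mostly had higher methylation in knockout cells. By the authors' deposited tables, hypermethylated channel sites numbered 192 and hypomethylated ones 6, a share of 97.0% hypermethylated (Clopper-Pearson interval, which covers counting error alone, 93.5 to 98.9%), beside 92.8% of all listed cytosines. Hypermethylated sites alone were found at 74 of the 80 genes (92.5%, interval 84.4 to 97.2%), beside 87% of all listed genes. Sites of the same gene and direction under 1000 bp apart were joined, which gave 105 regions, of which 99 (94.3%, interval 88.0 to 97.9%) were hypermethylated, beside 89.4% of all regions. The intervals by gene and by region include the share over all genes, and the interval by site lies just above it, though neighbouring cytosines are not independent. Sites on the same strand under 50 bp apart, the read length in the labels, can share reads. Counted once each, they formed 132 groups, of which 126 (95.5%, interval 90.4 to 98.3%) were hypermethylated. That interval includes the 92.8% of all listed cytosines, whose share by group was not computed. Grina, with 1 site at 34.4 percentage points, was the only listed gene under the name rule whose product is not a channel subunit.

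Of 244 protein-coding channel genes in the RefSeq table, 80 were nearest to a listed cytosine (32.8%, interval 26.9 to 39.1%), beside 13.7% of all protein-coding genes. Over all gene symbols, 80 of 251 channel symbols (31.9%) were listed, beside 6.68% of the table. The 80 leave out Grin1os, Kcnd3os and Kcnmb4os1, which were listed under other names. The 6.68% counts genes by identifier under any name, so the 2 measures differ slightly. Channel genes are long: their median length was 41143 bp, beside 17149 bp for protein-coding genes. Among protein-coding genes of up to 5653 bp, 5 of 15 channel genes (33.3%) and 7.53% of other genes were listed. Among those of at least 44328 bp, 43 of 118 channel genes (36.4%) and 20.2% of others were listed. How many cytosines of each gene were read was not used here, so the part of sequence coverage in these shares was not tested.

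The families differed in how many members were listed. Pore-forming calcium channel subunits were listed for 7 of 10 genes, auxiliary calcium channel subunits for 9 of 16, potassium channel accessory subunits for 7 of 13, ionotropic glutamate receptors for 8 of 16 and voltage-gated potassium channels for 17 of 40. Hyperpolarization-activated channels, which carry pacemaker currents, were listed for 3 of 4 genes. At the other end stood GABA-A receptors with 3 of 19 (15.8%), nicotinic receptors with 2 of 16 (12.5%), chloride channels with 1 of 9 (11.1%) and P2X receptors with 0 of 7. The shares of GABA-A receptors, nicotinic receptors and chloride channels are near the 13.7% of all protein-coding genes. The TRP channels had 4 of 21 and the sodium channels 5 of 17. Families this small give wide counting errors, and differences between them were not tested.

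**Figure D1:**
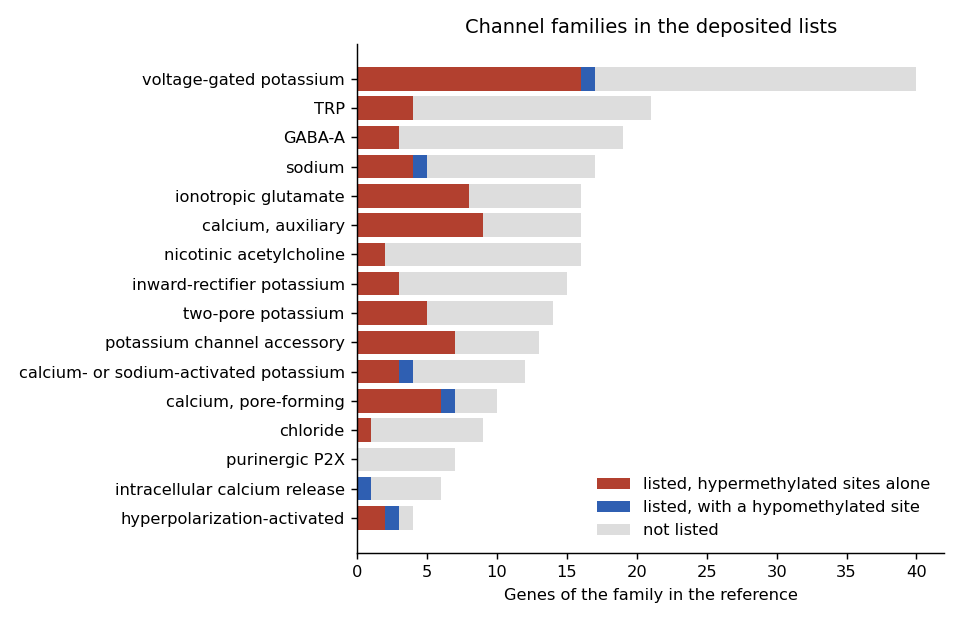
Bars count the genes of each channel family in the RefSeq table (horizontal axis, number of genes), split into genes listed with hypermethylated sites alone (red), genes listed with a hypomethylated site (blue) and genes not listed (grey). Voltage-gated potassium channels had 17 of 40 genes listed, and the P2X receptors 0 of 7.

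Voltage-gated potassium channel genes held 51 of the 198 sites. The gene with the most was Kcng4, whose product is an electrically silent subunit that modifies other potassium channels. Its 12 sites in the authors' deposited table lay in exon 2 of 3 within 372 bp (chromosome 8, 122156894 to 122157265, mm9), 2315 to 2686 bp downstream of the start. The 4 sites nearest the start were listed at 25.8, 27.5, 28.2 and 37.3 percentage points, and the other 8 at 55.3, 58.2, 59.4, 64.0, 64.0, 65.1, 70.4 and 86.5. The low and high values did not overlap along the exon, a split chosen after its values were seen. The 4 low sites are all on the reverse strand, but the strand does not separate the values by itself, since 3 other reverse-strand sites were listed at 55.3 to 64.0 percentage points.

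Kcnc1 encodes a channel of fast-spiking neurons. Its 7 sites in the authors' deposited table lay within 74 bp of exon 1 and intron 1 (chromosome 7, 53653607 to 53653680). They were listed at 50.3, 47.8, 59.7, 62.2, 46.0, 48.9 and 39.0 percentage points from the gene's 5′ side, and the 4 intron sites carry a CpG island label. No value fell outside 39.0 to 62.2, and the exon and intron values overlapped.

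**Figure D2:**
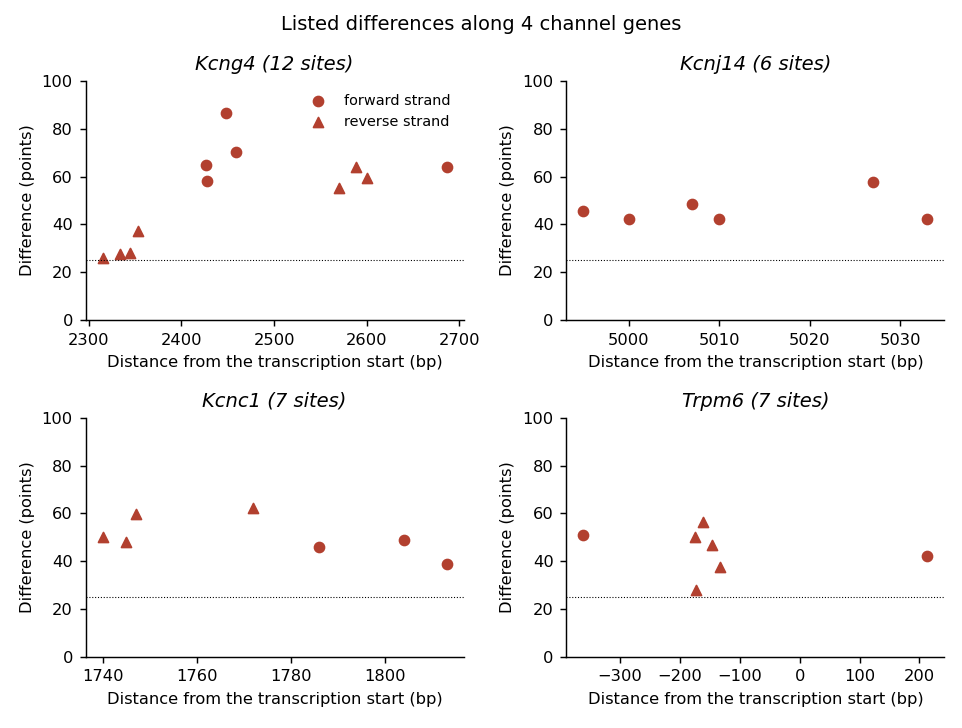
Each point is 1 listed cytosine of the authors' deposited table, with its methylation difference (vertical axis, percentage points) against its distance from the transcription start (horizontal axis, bp, positive downstream), circles for the forward and triangles for the reverse strand. The dotted line marks 25 percentage points, where the lists begin. Kcng4 sites from 2426 bp on reach 86.5 percentage points while the 4 nearest the start lie at or under 37.3.

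Kcnh3, another voltage-gated potassium channel gene, had 3 sites in a SINE repeat 2642 to 2668 bp upstream, at 32.6, 41.6 and 58.8 percentage points by the authors' deposited table, and Kcnq5 had 3 intergenic sites more than 300 kb upstream, at 32.8, 40.3 and 37.9. Kcnq1, the pore subunit of a cardiac repolarising channel, had 1 promoter site at 46.0, and Kcns2, another silent subunit gene, had 1 at 26.4. Kcnd3 had sites at 37.5 and 29.7 percentage points. The genes Kcna1, Kcna5, Kcna6, Kcng1, Kcnh1, Kcnh4 and Kcns3 had 1 site each, between 27.3 and 49.6. Kcng2 was the exception in direction, with 1 intergenic site at -51.2 percentage points, 8554 bp upstream.

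Accessory subunits bind potassium channels and change their gating. All 7 listed genes of this family were hypermethylated alone, beside 92.5% of channel genes and 87% of all listed genes, so the count is near the background. The median over the 17 sites of the family was 51.4 percentage points, beside 41.1 over all hypermethylated cytosines. Kcne1l on the X chromosome had 4 sites in its single exon (138740250 to 138740501), at 55.7, 70.3, 65.7 and 57.5 percentage points by the authors' deposited table. Kcne3 had promoter sites at 51.4 and 54.8 and an intron site at 39.2. Kcnip3, whose product binds calcium and a class of voltage-gated potassium channels, had sites only 5 bp apart in intron 2 that were listed at 83.9 and 39.6. Kcnip1 had 3 sites at 32.1, 46.7 and 49.8, Kcne1 had intergenic sites at 51.2 and 52.8, and Kcnab1 had sites at 59.2 in exon 1 and 34.3 in intron 1. Kcnip2 had 1 promoter site at 26.2 percentage points, just above the limit of the list.

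Among calcium-activated potassium channels, Kcnn3 had the highest regional mean of all channel genes. Its sites in exon 1 of 8 (chromosome 3, 89325108 and 89325132) were listed at 85.6 and 82.6 percentage points by the authors' deposited table. Kcnn1, of the same subfamily, had island sites in intron 1 at 34.2 and 37.3, and Kcnma1 had sites at 26.3 and 32.7. Kcnn2 had 1 intronic site at -45.6 percentage points, so close relatives were listed in opposite directions.

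Inward rectifiers hold the resting potential of many cells. Kcnj14 had 6 sites within 39 bp of exon 2 of 3 (chromosome 7, 53075084 to 53075122), listed at 42.4, 57.6, 42.4, 48.5, 42.4 and 45.5 percentage points by the authors' deposited table. All 6 lie on the forward strand within the length of a read. Kcnj11, the pore of the ATP-sensitive potassium channel, had a promoter site 2 bp from the start at 49.3 and a 5′ UTR site at 33.7. Its other sites, at 40.3 and 52.6, lay in intron 16 of 38 of the neighbouring Abcc8, which encodes the regulatory subunit of the same channel. Kcnj3 had sites in exon 1 at 30.9 and 39.1 percentage points. The leak channels of the two-pore family had 6 sites over 5 genes. Kcnk4, a channel opened by membrane stretch, had 1 promoter site at 51.8, Kcnk15 had 1 at 38.6, and Kcnk1, Kcnk10 and Kcnk18 lay between 26.4 and 36.8 percentage points.

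Pore-forming subunits of voltage-gated calcium channels admit calcium when the membrane depolarises. Cacna1g, a T-type channel gene, had 4 sites 654 to 1701 bp upstream of its start (chromosome 11, 94336166 to 94337213) at 39.8, 36.4, 37.9 and 44.5 percentage points by the authors' deposited table. Cacna1e had a promoter site at 45.5 and sites in intron 1 at 33.3 and 33.1. Cacna1b had sites in exon 1 at 26.7 and 38.8, Cacna1c had island sites in intron 1 at 40 and 36.0, Cacna1i had sites at 47.6 and 47.7, and Cacna1a had 1 at 28.7. Cacna1d, an L-type channel gene, had 1 site in intron 3 at -28.0. The 14 hypermethylated sites of the pore-forming genes had a median of 38.3 and a maximum of 47.7 percentage points.

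Auxiliary calcium channel genes reached higher values. The family includes Cacng2, Cacng3, Cacng4 and Cacng8, whose products also act as partners of AMPA-type glutamate receptors. Cacng4 had 5 sites within 33 bp, 5073 to 5105 bp upstream of its start (chromosome 11, 107660851 to 107660883), at 46.4, 68.5, 56.7, 70.3 and 65.9 percentage points by the authors' deposited table. Cacng3 had 4 sites 1002 to 1321 bp upstream at 33.8, 59.9, 31.9 and 58.3, and 3 of these lay within 10 bp of each other. Cacnb3 had 4 sites upstream of its start at 33.7, 27.4, 59.2 and 55.9, the last in the promoter. Cacng2 had a promoter site at 26.9 and intron 1 sites at 34.1 and 44.3, Cacna2d3 had sites at 52.3, 31.7 and 40, and Cacna2d2, Cacna2d4, Cacng6 and Cacng8 had 1 site each between 34.3 and 50.1. The Cacng6 site lies in exon 5 of Cacng8.

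Among sodium channels, Scn8a, a main channel of axons, had 6 sites in 3 separate regions, at 46.2 and 58.8 percentage points about 45 kb upstream, 35.8 and 43.4 in intron 1 close to the start, and 37.8 and 39.5 farther into the gene. The 35.8 and 43.4 are the forward and reverse cytosines of 1 CpG, and both strands were listed in the same direction. Scnn1g and Scnn1b encode subunits of the epithelial sodium channel, which takes up sodium in kidney and lung. Scnn1g had sites 100 to 208 bp downstream of its start (chromosome 7, 128878121 to 128878229) at 34.9, 66.6, 38.7 and 63.4 percentage points by the authors' deposited table, and Scnn1b had exon 2 sites at 67.4 and 52.4. Scn2b had 3 sites at 30, 28.0 and 32.8 percentage points. Its chromosome 9 neighbour Scn4b, which encodes another β subunit, had 1 site in the 3′ UTR at -33.6.

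TRP channels had the promoter with the most listed channel sites. Trpm6, a channel for magnesium uptake, had 6 of its 7 sites in the promoter (chromosome 19, 18824112 to 18824340), at 50.8, 50.0, 28.1, 56.2, 46.9 and 37.5 percentage points by the authors' deposited table. The seventh, 213 bp downstream in intron 1, was at 42.1, inside that range. Trpm3 had promoter sites at 62.1 and 44.5. Trpc7 had 4 sites within 38 bp of intron 6 of 11 (chromosome 13, 56908502 to 56908539) at 53.6, 81.7, 63.6 and 67.3, above its 2 distant sites at 35.6 and 32.2.

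Ionotropic glutamate receptors were listed in the hypermethylated direction alone, over 8 genes and 17 sites. That is near the background, since 87% of all listed genes had that direction alone. Grin2b, an NMDA receptor subunit gene, had 4 sites within 199 bp (chromosome 6, 136121750 to 136121948) at 61.9, 25.3, 34.3 and 61.7 percentage points by the authors' deposited table. Grin2a had a promoter site at 52.2 and upstream island sites at 31.0 and 59.0. Grin2c, Grin2d and Grin3b had 1 site each, at 47.5, 31.4 and 30.4. The Grin2c site lies in exon 7 of 12 of Fdxr, the adjacent gene. Kainate receptor genes had no promoter site, and Grik3 was listed at 35.6, 25.6 and 42.5, Grik4 at 29.8, 43.8 and 44.0, and Grik1 at 34.1 percentage points. The AMPA receptor genes Gria1, Gria2, Gria3 and Gria4 were not listed.

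Other ligand-gated channels had few sites. Gabrg1, a GABA-A receptor subunit gene, had 5′ UTR sites at 63.2 and 50.0 percentage points and a promoter site at 52.5 in the authors' deposited table (chromosome 5, 71233612 to 71234194), so all 3 were at or above 50. Gabrb2 had 1 site at 43.8, 233822 bp from its start, and the single Gabrp site, at 32.0, lies in intron 1 of Kcnip1. Chrnb4 had sites in intron 1 at 32.6 and 51.6, and Chrna5, in the same receptor gene cluster, had 1 site at 27.0. Among the hyperpolarization-activated channels, Hcn2 had 1 promoter site at 61.3 percentage points. Hcn4 was the single channel gene listed in both directions, with upstream sites at 41.1 and 31.4 and a site in an LTR repeat 44100 bp downstream of its start at -29.4.

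**Figure D3:**
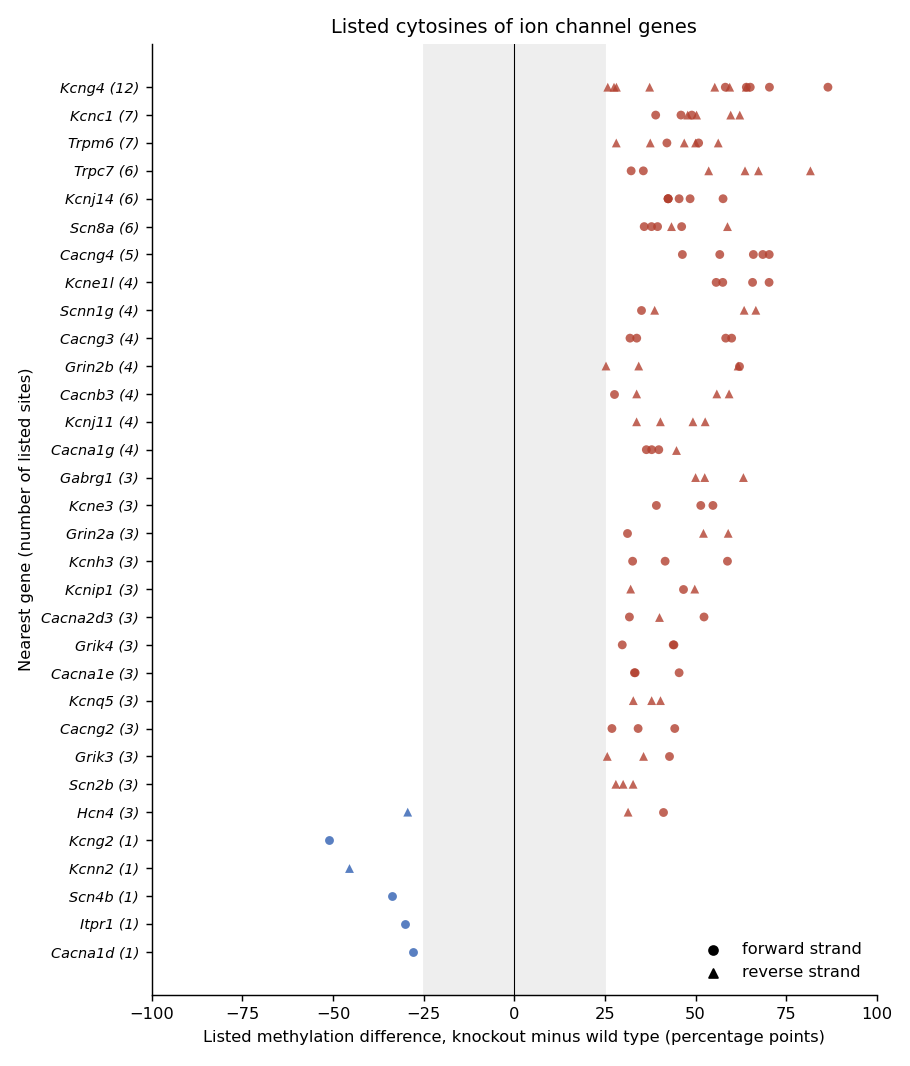
Each point is 1 listed cytosine of the authors' deposited tables, placed by its methylation difference (horizontal axis, percentage points, knockout minus wild type) for 27 channel genes with at least 3 sites and 5 others with a hypomethylated site, circles for the forward and triangles for the reverse strand. The grey band spans the differences under 25 percentage points, which the lists leave out. Red sites are hypermethylated and reach 86.5, and the 6 blue sites lie between -51.2 and -28.0.

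The 6 hypomethylated sites belonged to 6 genes. None lay in a promoter, but hypomethylated promoter sites were few over all genes too, where 703 of 725 promoter cytosines were hypermethylated. The 6 genes were Kcng2, Kcnn2, Scn4b, Itpr1, Hcn4 and Cacna1d, with 3 sites in introns, 2 in intergenic sequence and 1 in a 3′ UTR. Their median was -31.9 percentage points by the authors' deposited table, beside -34.1 over all hypomethylated cytosines. Itpr1, a calcium release channel of the endoplasmic reticulum, had its site in intron 2 of 61 at -30.2. Of 17 channel genes listed for a known role in blood or immune cells, among them Kcna3, Kcnn4, Trpm2, Trpm7, P2rx7, Itpr2 and Itpr3, 1 was nearest to a listed site (5.88%), and it was Itpr1. The same share was 32.8% over protein-coding channel genes and 13.7% over all protein-coding genes. With 17 genes, chosen with earlier results known, nothing is read from this count.

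The sizes of the gains were close to those of all genes. The median over 192 hypermethylated channel sites was 42.4 percentage points (interval of the median 39.6 to 45.6), beside 41.1 over all 6270 hypermethylated cytosines of the authors' deposited table. At least 60 percentage points were reached by 29 channel sites (15.1%, interval 10.4 to 21.0%), beside 12.3% of all. At least 70 were reached by 10 channel sites (5.21%, interval 2.53 to 9.37%), among them sites at Kcng4, Kcnn3, Kcnip3, Trpc7, Cacng4 and Kcne1l. Of all 6270 hypermethylated cytosines 251 reached 70 percentage points, a share inside that interval, so the count is near the background. Channel sites in exons had a median of 49.6 percentage points and those in promoters of 46.9, against 39.2 in introns and 37.9 in intergenic sequence. Over all genes the same medians were 45.0, 41.2, 39.5 and 40.6.

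**Figure D4:**
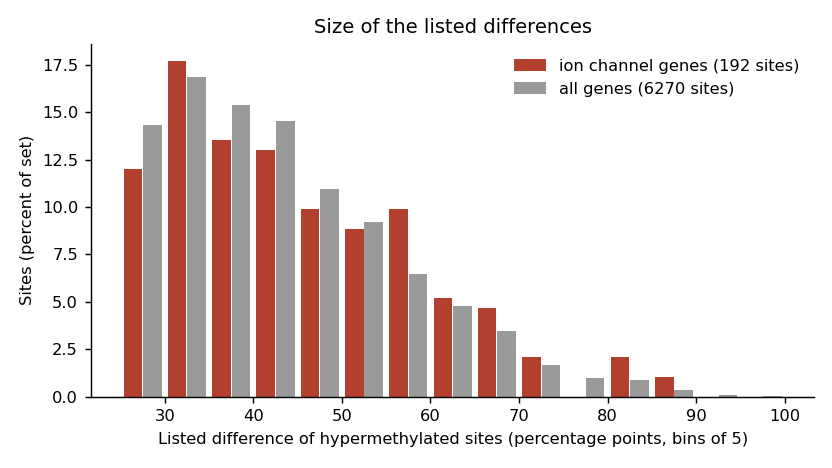
Bars give the percentage of hypermethylated sites (vertical axis) in bins of 5 percentage points of listed difference (horizontal axis) for the 192 sites of ion channel genes (red) and all 6270 sites (grey). Both sets hold most sites between 25 and 60 percentage points, with medians of 42.4 and 41.1.

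Of the 105 channel regions, 43 had at least 2 sites and held 136 of the 198 sites, and all 43 were hypermethylated. Among all listed regions of any size 89.4% were hypermethylated. The share among all regions with at least 2 sites was not computed, so nothing is read from the 43. The SD over sites within a region had a median of 8.55 percentage points and ranged from 0.993 to 31.3, the highest at Kcnip3, while the means of the 43 regions had an SD of 11.4. Regions with at least 2 sites had a median mean of 44.5 percentage points, against 36.0 for the 56 single hypermethylated sites. The same values over all genes were 43.8 and 37.1.

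Of the 99 hypermethylated channel regions, 55 were within 5000 bp of a start (55.6%, interval 45.2 to 65.6%), beside 42.5% of all hypermethylated regions. At least 2 sites were held by 43 of the 99 (43.4%, interval 33.5 to 53.8%), beside 31.8% of all. Promoters made up 14.1% of the channel regions (interval 7.95 to 22.6%), exons 20.2%, introns 38.4% and intergenic sequence 27.3%, beside 10.8, 14.6, 34.3 and 38.5% of all regions. By region, the channel interval includes the share over all genes for promoters, exons and introns and lies below it for intergenic sequence (18.8 to 37.1%). Counted by site, the largest class was 1 to 5 kb downstream of the start, with 43 of 192 sites (22.4%, beside 13.7% of all), of which 19 belong to the Kcng4 and Kcnc1 clusters. The first kilobase downstream followed with 30 sites (15.6%), a lower share than the 17.9% of all. Of the 68 intronic channel sites, 3 of them hypomethylated, 42 lay in intron 1, and the same share over all genes was not computed. Among intronic and intergenic hypermethylated sites, 14 of 110 carried an island label (12.7%, interval 7.14 to 20.4%), beside 6.36% of all. Kcnc1 had 4 of them, Scnn1g 3, Cacna1c, Grin2a and Kcnn1 2 each, and Gabrp 1. The interval counts neighbouring cytosines as independent, which they are not, so no difference from all genes is read from it.

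**Figure D5:**
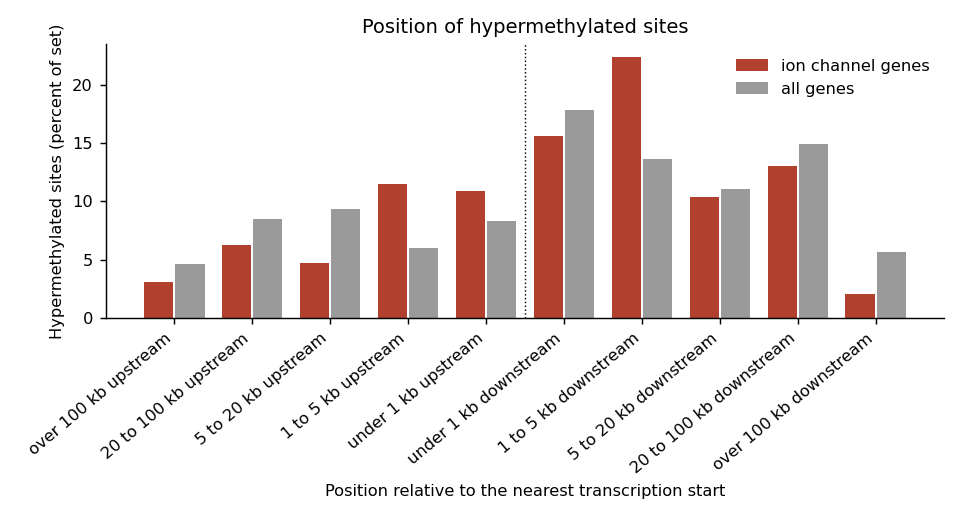
Bars give the percentage of hypermethylated sites (vertical axis) by position relative to the nearest transcription start (horizontal axis, upstream left of the dotted line) for ion channel genes (red) and all genes (grey). Channel genes had 22.4% of sites 1 to 5 kb downstream, against 13.7% over all genes.

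Promoter sites numbered 25 over 18 channel genes. All 25 were hypermethylated, beside 97% of the promoter cytosines of all genes, so the count is near the background. Outside Trpm6 they numbered 1 or 2 per gene. RefSeq windows from 250 bases before to 50 after a start (GRCm38.p6) were found for 56 of the 80 genes. Windows of members with a promoter site held a median of 11.5 CpG dinucleotides, over 13 of the 18 genes. The median was 11.0 over all listed channel genes with a window, 9.5 over all channel genes and 7.0 over all genes. Counted from the RefSeq start, the listed distance fell on a CpG at Grin3b and Kcnk4. At Trpm6 none of the 5 distances in the window did, and its sequence is not shown. The Grin3b and Kcnk4 sequences are shown because their single listed CpG, in capitals, can be placed. The Grin3b site stands in a promoter with few CpG dinucleotides, 3 in the whole window.
Grin3b, 250 bases upstream of the start, chr10:79970474-79970723, forward strand, 30.4 percentage points: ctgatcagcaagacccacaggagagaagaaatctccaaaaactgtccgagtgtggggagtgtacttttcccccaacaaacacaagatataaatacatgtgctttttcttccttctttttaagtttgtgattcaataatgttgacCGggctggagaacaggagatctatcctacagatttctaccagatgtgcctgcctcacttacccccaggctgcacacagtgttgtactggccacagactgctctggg
Kcnk4, bases 6 to 35 after the start, chr19:6934480-6934509, reverse strand, 51.8 percentage points: gctgtcctgagcccCGggccagctgatgtc

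Several channel genes with sites were neighbours. Chromosome 7 held 41 of the 198 channel sites (20.7%), beside 7.27% of all listed sites, over 12 genes that include Kcnc1, Kcnj11, Kcnj14, Grin2d, Kcne3, Scnn1b and Scnn1g. There were 14 pairs of listed channel genes with sites within 300 kb of each other. In 13 of them both genes were hypermethylated alone. Counted singly, 92.5% of channel genes and 87% of all listed genes had that direction alone. The share over pairs of all listed genes was not computed, so nothing is read from the 13. Genes such as Kcnj11 also enter several pairs. The 13 pairs include Scnn1b with Scnn1g, Chrna5 with Chrnb4, Kcna1 with Kcna5 and Kcna6, and Cacng6 with Cacng8. The pair Scn2b and Scn4b, 29284 bp apart, was listed in opposite directions.

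Channels outside the name rule were described from a list of 101 reference genes of chloride, connexin, glycine receptor, aquaporin and other channels. Of these 27 (26.7%) were listed, 23 with hypermethylated sites alone and 4 with a hypomethylated site. Their 54 hypermethylated sites had a median of 38.5 percentage points by the authors' deposited table. Gjb5, a connexin gene, had 9 sites with a mean of 37.6, and Cnga3, a cyclic nucleotide-gated channel gene of cone photoreceptors, had 6 with a mean of 44.6. Solute carrier genes, the other large group of membrane transport genes, had 117 hypermethylated and 10 hypomethylated sites, and 51 of their 61 listed genes (83.6%, interval 71.9 to 91.8%) were hypermethylated alone. That interval overlaps the one of the ion channel genes. Hypermethylated regions within 5000 bp of a start made up 67.7% in the channels outside the rule and 50.0% in solute carrier genes, beside 55.6% in ion channel genes. Intergenic regions made up 25.8%, 22.1% and 27.3% in the same order. These position shares were thus not particular to the ion channel genes.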

How the data were processed

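The submitters' processing notes name Bismark and mm9. How differences were called, with what coverage minimum, and how replicates entered them is not given in the sources used here. In each line the authors' deposited tables give a methylation difference in percentage points and a distance to the nearest transcription start in base pairs for each cytosine. Columns with values per sample numbered 0, so the planned model of counts per sample was not run. Positions are those of the site identifiers (mm9). The sign of the deposited distance follows the strand of the cytosine, so it was turned for reverse-strand sites. After this, 2379 of 2379 exon and intron sites of the nearest transcript lay downstream of its start, against 1218 before.

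Sites of 1 gene and direction were joined under 1000 bp, and a region took its commonest feature, a tie going to the promoter first, then exon and intron. UTRs counted as exons. Shares carry exact Clopper-Pearson intervals and medians order-statistic intervals, both at 95% and for counting error only. No test was run: members are not replicates. Entrez identifiers of 80 of 80 channel genes were found in the RefSeq table (GRCm38.p6), used for names, lengths and promoter sequence, never for mm9 positions. Joining and intervals were tested on simulated data. The members and lists were chosen with earlier results of these data known. Named genes were the 4 per family with the most sites, all with a promoter or hypomethylated site and all with a site of at least 70 percentage points, with other members added. A few genes enter the counts and are not reported here by name. Python 3.11.15, pandas 2.3.3 and SciPy 1.17.1 were used.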

Additional observations from a re-analysis of the deposited data

How the results depend on the processing

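No paired analysis was possible because the tables hold 1 difference per cytosine and no column per sample, and for the same reason no replicate could be left out. The 11 results were recomputed under 67 alternatives, and 61 stayed within the interval of the reported value. With differences of at least 40 percentage points alone, the median of hypermethylated sites was 52.3 percentage points and the share of channel symbols listed 20.3%, as a shorter list must give. On the forward strand alone, the share of channel symbols listed was 20.7% and that of hypermethylated regions with at least 2 sites 30.5%, with fewer sites counted. By site in place of region, exons made up 29.7% (interval 23.3 to 36.7%), beside 19.55% of all hypermethylated sites. By site the interval thus lies above the share over all genes, while by region it includes that share. Of the 57 exon sites, 12 belong to Kcng4, and neighbouring cytosines are not independent. Among genes with at least 2 sites, 97.8% were hypermethylated alone, an alternative added after the data were seen. The same share over all listed genes with at least 2 sites was not computed, so nothing is read from the 97.8%. The read groups and the share over protein-coding genes were added then too. Shares of listed genes depend on which cytosines were read, and no depth was available to weigh the differences.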

Other observations

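A further 18 listed cytosines were annotated to a transcript that meets the name rule in the authors' deposited tables, but were listed under another nearest gene name. They fell in or at the ends of 13 genes. Of these genes, 7 have no site under their own name and 1, Kcnd3os, is an antisense transcript. Of the 18 sites, 17 were hypermethylated, beside 92.8% of all listed cytosines, so the count is near the background. The Kcnd3os site is listed under 1700095B22Rik, another name of the same gene, so it lies nearest to its own start. Ryr1, the calcium release channel of skeletal muscle, had 3 sites in exon 91 of 106 at 28.2, 33.8 and 31.3 percentage points and 1 in intron 85 at 36.7. Kcnj10, an inward rectifier of glial cells, had exon 2 sites at 50.4 and 40. Trpm6 had a site in its last intron at 62.9, above all of its promoter sites. Cacna1d had a second hypomethylated site, in intron 39 of 46, at -46.5 percentage points, so both of its listed sites were negative.

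Over all genes, both cytosines of a CpG were listed for 57 CpGs. The strands had the same sign in 57 of 57, with a median gap of 8.29 percentage points and a largest gap of 40.4. The channel genes held 2 of these, at Kcnip1 (46.7 and 49.8) and Scn8a (35.8 and 43.4). Both strands had to pass 25 percentage points to be listed, so the gap describes listed pairs alone.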
